A study of Mus musculus with 7 samples.

Results

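Aminoacyl-tRNA synthetases are the enzymes that load each amino acid onto its transfer RNA, at the cost of ATP, before the ribosome can use it. Cytosolic enzymes serve translation in the cytoplasm, and a separate set of nuclear-encoded enzymes, most with a 2 at the end of the gene symbol, is imported to serve the mitochondrial ribosome. Gars (glycine) and Kars (lysine) supply both compartments from 1 gene each, and they are counted here with the cytosolic enzymes. Several cytosolic synthetases are bound together in the multisynthetase complex, and many synthetase genes are known targets of ATF4, the transcription factor of the amino acid response. The exocrine pancreas is known for a very high rate of protein synthesis.

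With earlier results of these data known, the synthetase genes were chosen by a rule on the platform gene symbol. Of the 22180 genes that a probe set names alone, 34 met this rule. They comprised 18 genes of cytosolic enzymes and 16 of mitochondrial enzymes. The alanine enzyme gene Aars and the tRNA editing gene Aarsd1 met the symbol rule, but their 4 probe sets are shared with another gene and were left out. No probe set was named for the aspartate enzymes here. Of the 34 genes, 33 had 1 probe set and Nars2 had 2, of which the one with the higher mean was used.

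Expression was measured in pancreatic islets isolated with collagenase from mice of 2 months of age, on 7 whole-transcript arrays. The 3 control arrays held islets of Gata6 flox/flox mice without Cre. The 4 arrays labelled Gata6 KO held islets of Gata6 flox/flox;Pdx1-Cre mice, in which Cre is driven by the Pdx1 promoter, active in the epithelium of the developing pancreas. Each array held islets pooled from 3 mice, so an array is also called a pool below. All mice carried the floxed alleles, and no control carried Cre, so an effect of Cre cannot be told apart from one of Gata6. The values are log2 signals, and the number of arrays limits the precision.

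Gata6 itself did not fall. It measured 4.60, 4.80 and 4.83 in the control pools and 5.41, 5.35, 5.34 and 5.01 in the KO-labelled pools (limma, adjusted p = 0.0622, and 0.0333 without the last of these, in a range over alternatives from 0.0312 to 0.344). Where its probes lie relative to the floxed exons is not stated in the labels, and probes outside those exons would not check the deletion. The Gata6 signal thus does not show the loss that the group labels name, and every direction below is drawn from those labels. Endocrine genes were well expressed on the control arrays, where Gcg measured 11.98 ± 0.15 (SD, n = 3). So were genes of acinar cells, the enzyme-secreting cells of the exocrine pancreas, and Ctrb1 measured 13.40 ± 0.03 (SD, n = 3) there. The median log2 difference over all genes was 0.17, so differences are also given minus this shift.

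Of the 18 cytosolic synthetase genes 7 were higher in the pools labelled Gata6 KO and 0 were lower (limma, with p adjusted by Benjamini-Hochberg over every gene and called below 0.05). Over all genes tested 17.4% were called higher and 7.36% lower. The 7 were Nars, Qars, Rars, Wars, Hars, Vars and Mars1, the enzymes for asparagine, glutamine, arginine, tryptophan, histidine, valine and methionine. Of the 16 mitochondrial synthetase genes 3 were higher and 0 lower, a share of 18.8%, near that of all genes. These were Iars2, Cars2 and Lars2, the enzymes for isoleucine, cysteine and leucine. At an unadjusted p under 0.05, 11 cytosolic and 7 mitochondrial genes were higher and 0 were lower, against 26.4% of all genes higher and 11.0% lower. The median log2 difference was 0.52 over the cytosolic and 0.51 over the mitochondrial genes, or 0.35 in both lists minus the shift. The groups did not overlap, with the pools labelled Gata6 KO higher, for 11 cytosolic and 5 mitochondrial genes, and over all genes this held for 24.4%. They did not overlap in the other direction for 0 of the 34 synthetase genes, against 9.96% of all genes.

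These counts depended on the scaling. With each pool centred on its median 2 cytosolic genes (Nars and Qars) and 2 mitochondrial genes (Iars2 and Cars2) were called higher, against 8.43% of all genes. After a repeated quantile normalization the counts were 5 and 2, against 11.0% of all genes. None of the 34 synthetase genes was called lower under these scalings, where 12.5% and 11.2% of all genes were. Among the 13308 genes left without the 40% of lowest mean, which held all 18 cytosolic and 14 of the mitochondrial genes, 8 and 4 were called higher, against 24.6% of these genes. The cytosolic count fell to 4 without control pool 1, when 10.1% of all genes were called higher. The mitochondrial count rose to 5 without the pool labelled Gata6 KO 1 (16.4% of all genes) and also without the pool labelled Gata6 KO 4 (17.2% of all genes). Without the pool labelled Gata6 KO 3, on which the means of the endocrine marker lists were lowest, the counts were 8 and 3, against 15.3% of all genes.

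**Figure D1:**
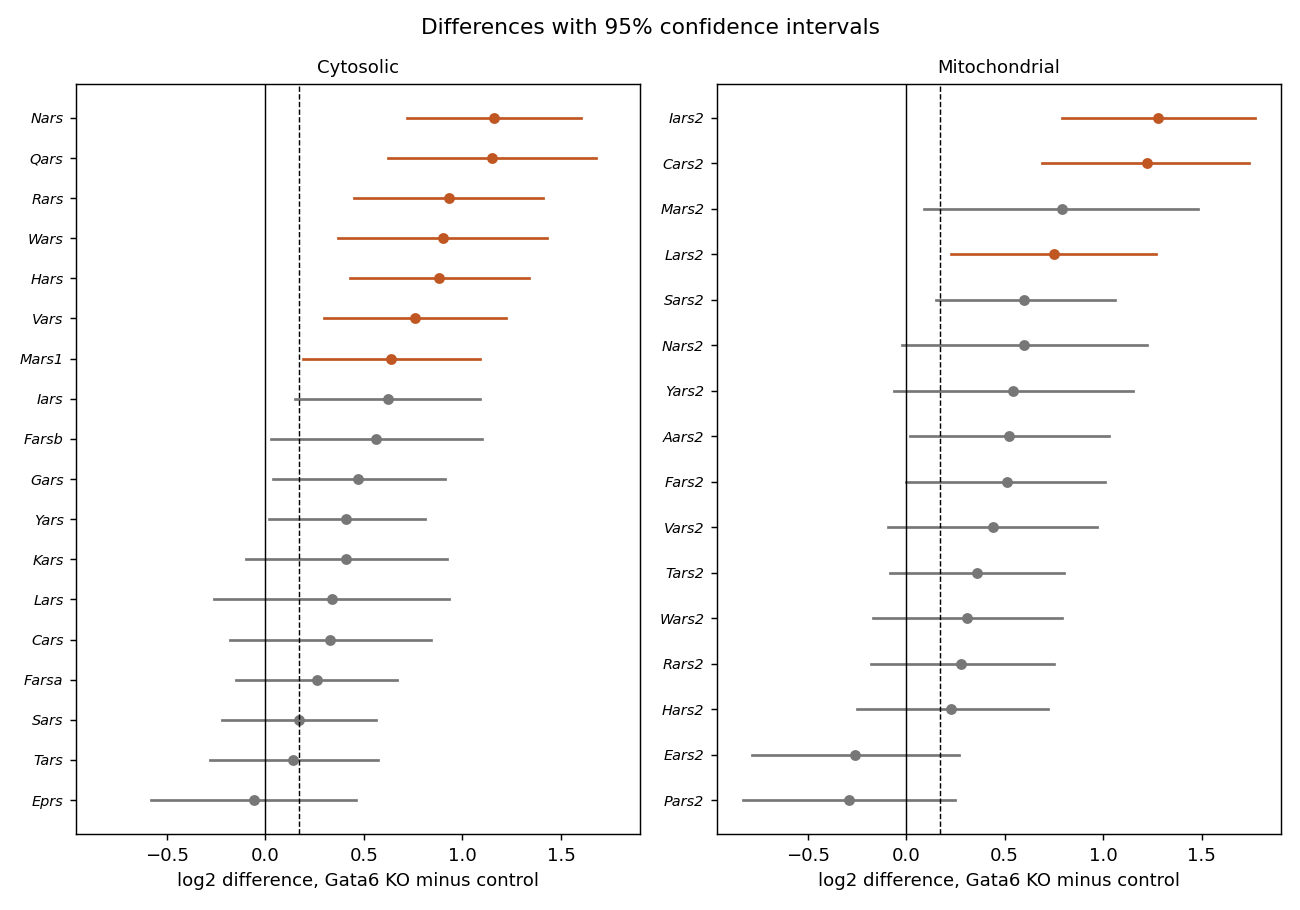
Log2 difference (pools labelled Gata6 KO minus control pools) of each cytosolic (left) and mitochondrial (right) synthetase gene. Points are differences and lines 95% confidence intervals from limma, orange marks genes called higher, grey genes not called, the solid line is 0 and the dashed line the median of all genes, 0.17. Of the 34 genes 30 lie to the right of the dashed line.

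Promoter sequences are shown for members that hold a match to the element through which ATF4 is known to act, and for a member with a large difference in each compartment. RefSeq promoter windows (GRCm38.p6), from 250 bases before to 50 bases after the start, were matched by gene identifier for 25 of the 34 genes, 11 cytosolic and 14 mitochondrial. The core of the C/EBP-ATF response element was searched as TGATGNAA on both strands. It was found in the windows of 4 of the 11 cytosolic and 0 of the 14 mitochondrial genes, and in 3.97% of the 32851 windows in the table. The 4 genes were Iars, Tars, Yars and Gars. Each match lay within 30 bases of the start, with its first base at 8 in Iars, -15 in Tars, 4 in Yars and -30 in Gars, where 1 is the first transcribed base. None of these 4 genes was called. Windows were found for 11 of the 18 cytosolic genes, so a called gene without a window was not searched. The matches stand below in capitals, 5′ to 3′ on the gene's strand, with 11 bases on each side (Iars chr13:49682126-49682155, plus strand; Tars chr15:11399655-11399684, minus strand; Yars chr4:129189895-129189924, plus strand; Gars chr6:55037960-55037989, plus strand).
Iars: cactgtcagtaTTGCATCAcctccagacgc
Tars: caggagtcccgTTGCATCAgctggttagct
Yars: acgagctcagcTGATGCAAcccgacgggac
Gars: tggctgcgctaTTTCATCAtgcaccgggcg

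The GATA motif was searched as AGATAA or else AGATAG, and as TGATAA or else TGATAG, on both strands, and 29.8% of all windows held at least 1 of these. Among the synthetase genes it was found for 2 of the 11 cytosolic genes, Farsb and Sars, and for 5 of the 14 mitochondrial genes, Aars2, Ears2, Iars2, Sars2 and Yars2. No match of 1 motif overlapped a match of the other in these genes. Iars2 was the only one of these 7 genes that was called, and its match spans bases -107 to -102. The 250 bases before the start are shown for Iars2 (chr1:185329402-185329651, minus strand), with the GATA match in capitals, and for Qars (chr9:108507755-108508004, plus strand), which held neither motif.
Iars2: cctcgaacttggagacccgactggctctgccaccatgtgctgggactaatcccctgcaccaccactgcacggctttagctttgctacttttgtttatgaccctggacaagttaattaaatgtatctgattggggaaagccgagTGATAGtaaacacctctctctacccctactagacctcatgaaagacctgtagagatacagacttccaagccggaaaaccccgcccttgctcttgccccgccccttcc
Qars: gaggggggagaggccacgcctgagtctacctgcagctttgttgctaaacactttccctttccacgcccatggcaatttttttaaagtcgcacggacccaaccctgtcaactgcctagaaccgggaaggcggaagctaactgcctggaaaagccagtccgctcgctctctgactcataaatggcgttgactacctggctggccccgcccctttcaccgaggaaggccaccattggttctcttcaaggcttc

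Nars, the cytosolic asparagine enzyme, had the largest difference of the cytosolic genes. Its log2 signal was 6.90, 6.78 and 7.31 in the control pools and 8.45, 8.15, 8.18 and 7.86 in the pools labelled Gata6 KO. The lowest of the latter lay above the highest control. The difference was 1.16 (SE 0.21, 2.24-fold; limma adjusted p = 0.00123), or 1.00 minus the shift. Qars, the glutamine enzyme and a member of the multisynthetase complex, measured 4.37, 4.59 and 4.72 in the control pools and 6.20, 5.99, 5.24 and 5.42 in the KO-labelled pools. Pools 1 and 2 labelled Gata6 KO were the highest, and the groups did not overlap. The difference was 1.15 (SE 0.25, 2.22-fold; limma adjusted p = 0.00429), or 0.99 minus the shift. Both genes were called under every alternative setting tried, with adjusted p up to 0.0113 for Nars and 0.0285 for Qars.

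Rars, the arginine enzyme of the complex, measured 5.54, 5.34 and 5.29 in the control pools and 6.66, 6.16, 6.57 and 5.88 in the KO-labelled pools, with no overlap. It rose by 0.93 (SE 0.22; limma adjusted p = 0.00820), or 0.76 minus the shift. Hars, the histidine enzyme, measured 4.99, 4.71 and 4.31 in the control pools. In the pools labelled Gata6 KO it measured 5.61, 5.46, 5.67 and 5.48, all close together and above every control. The difference was 0.88 (SE 0.21; limma adjusted p = 0.00783), or 0.72 minus the shift. The calls of both genes held without each pool in turn. Both were lost after centring, at an adjusted p of 0.0586 for Rars (range over alternatives 0.00224 to 0.0659) and 0.0546 for Hars (0.00578 to 0.0737).

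Wars, the tryptophan enzyme, which interferon gamma is known to induce, measured 6.70, 6.59 and 7.11 in the control pools and 8.30, 7.42, 7.31 and 7.77 in the KO-labelled pools. The pool labelled Gata6 KO 1 was the highest, and the groups did not overlap. It rose by 0.90 (SE 0.25; limma adjusted p = 0.0165), or 0.73 minus the shift. Vars, the valine enzyme, measured 4.04, 4.15 and 4.47 in the control pools and 5.02, 5.32, 4.82 and 4.79 in the KO-labelled pools, also without overlap. Its difference was 0.76 (SE 0.21; limma adjusted p = 0.0189), or 0.60 minus the shift. Mars1, the methionine enzyme of the complex, also loads the initiator tRNA. It measured 5.65, 5.92 and 5.40 in the control pools and 6.34, 6.10, 6.15 and 6.60 in the KO-labelled pools, and it rose by 0.64 (SE 0.21; limma adjusted p = 0.0385), or 0.47 minus the shift.

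These last 3 calls were lost under more alternatives than the other 4. The Wars call was lost without control pool 1 (adjusted p = 0.0697) and without control pool 2 (adjusted p = 0.0817), in a range over all alternatives from 0.00991 to 0.0839. The Vars call was lost without control pool 1 (adjusted p = 0.0907), control pool 2 (adjusted p = 0.0764) or the pool labelled Gata6 KO 2 (adjusted p = 0.0609), in a range from 0.00622 to 0.113. The Mars1 call was lost without control pool 1 (adjusted p = 0.106) or 3 (adjusted p = 0.156). It was also lost without the pool labelled Gata6 KO 1 (adjusted p = 0.0629), 2 (adjusted p = 0.0504) or 4 (adjusted p = 0.0756), in a range from 0.0305 to 0.202.

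**Figure D2:**
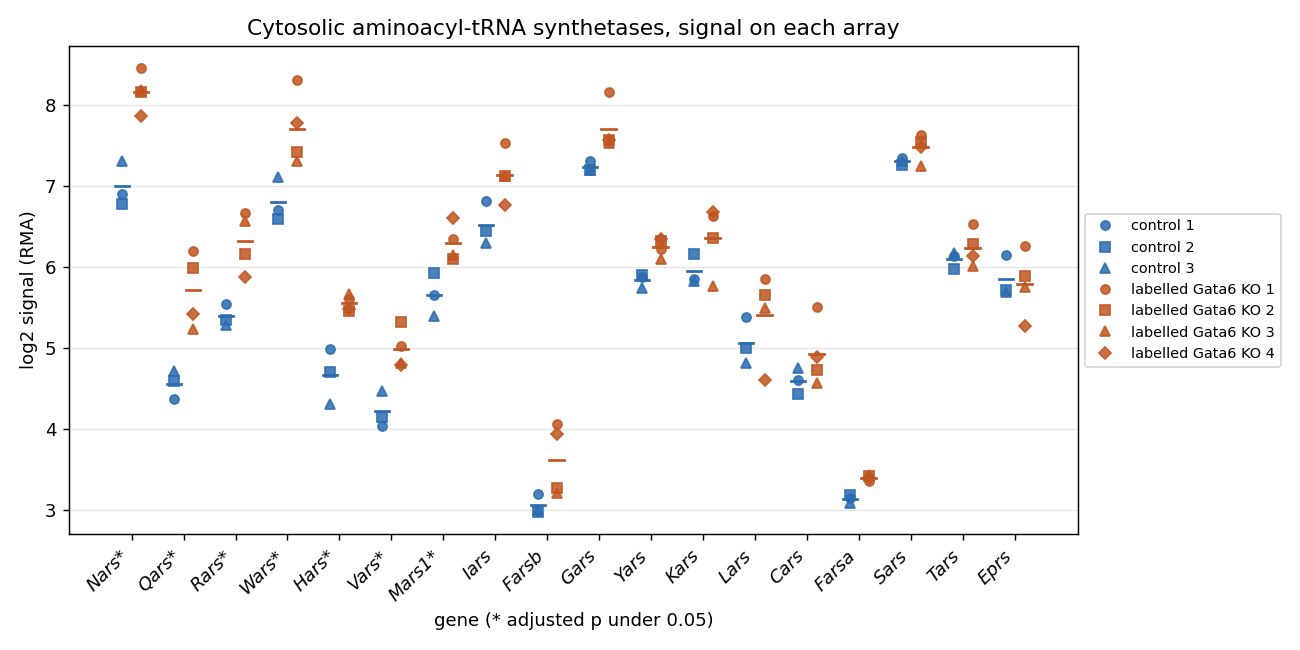
Log2 signal of the 18 cytosolic synthetase genes on each array, ordered by their difference, with controls in blue, pools labelled Gata6 KO in orange, 1 marker shape for each replicate number and a bar at each group mean. For the 7 genes with an asterisk, Nars to Mars1, all orange points lie above all blue points, while for Eprs at the right the groups overlap.

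The other 11 cytosolic genes did not pass the test. Iars, the isoleucine enzyme of the complex, came closest. It measured 6.81, 6.44 and 6.29 in the control pools and 7.53, 7.12, 7.12 and 6.76 in the KO-labelled pools, where pool 4 lay below control pool 1. Its difference was 0.62 (SE 0.22; limma adjusted p = 0.0548), and without the pool labelled Gata6 KO 4 the adjusted p was 0.0228, in a range from 0.0123 to 0.284. The groups did not overlap for 4 more genes: Farsb and Farsa, the beta and alpha subunits of the phenylalanine enzyme, Gars and Yars, the tyrosine enzyme. Their differences were 0.56 (SE 0.25) for Farsb, 0.26 (SE 0.19) for Farsa, 0.47 (SE 0.20) for Gars and 0.41 (SE 0.18) for Yars, with limma adjusted p from 0.102 to 0.343.

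The Farsa and Farsb proteins form 1 enzyme, and their signals spread differently. Farsa lay between 3.36 and 3.43 in the 4 pools labelled Gata6 KO, and Farsb between 3.21 and 4.06. Kars, the lysine enzyme of the complex, differed by 0.41 (SE 0.24). It measured 5.76 in the pool labelled Gata6 KO 3, below each control, and 6.36 to 6.68 in the other 3. Without pool 3 its adjusted p was 0.0437, in a range from 0.0437 to 0.646. Cars, the cysteine enzyme, and Lars, the leucine enzyme of the complex, differed by 0.33 (SE 0.24) and 0.34 (SE 0.28). Without the pool labelled Gata6 KO 1 these were 0.13 and 0.19. Without the pool labelled Gata6 KO 4 the Lars difference was 0.60, which was not called (adjusted p = 0.0617, in a range from 0.0429 to 0.836). For Lars the pool labelled Gata6 KO 4, at 4.61, lay below all controls, and the other 3 lay above them.

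The smallest cytosolic differences were those of Sars (serine), Tars (threonine) and Eprs, a fusion enzyme that loads both glutamate and proline. Sars differed by 0.17, with a 95% confidence interval from -0.22 to 0.56, and Tars by 0.14, from -0.28 to 0.57. Both turned to small negative values after centring and after quantile normalization. Eprs measured 6.15, 5.72 and 5.69 in the control pools and 6.26, 5.89, 5.75 and 5.27 in the KO-labelled pools, and the groups overlapped. Its difference was -0.06, with an interval from -0.58 to 0.46, and it turned to 0.08 without control pool 1 and to 0.11 without the pool labelled Gata6 KO 4. Within the multisynthetase complex, differences thus ran from -0.06 for Eprs to 1.15 for Qars. Of its 7 enzyme genes 3 rose, and of the 11 cytosolic genes outside it 4 rose, against 17.4% of all genes.

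The pools labelled Gata6 KO also differed among themselves. For 12 of the 18 cytosolic genes pool 1 was the highest of the 4, and over all genes it was the highest for 25.5%. Pool 3 was the lowest of the 4 for 9 cytosolic genes, against 28.5% of all genes. The mean of the cytosolic list was 5.46 to 5.56 in the control pools and 6.35, 6.04, 5.90 and 5.94 in pools 1 to 4 labelled Gata6 KO. The mitochondrial list mean was 2.70 to 2.78 in the control pools and 3.22, 3.15, 3.26 and 3.29 in the KO-labelled pools, with pool 1 no longer the highest.

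Mitochondrial enzymes gave low signals throughout, with control means from 1.77 to 3.97. Iars2, the isoleucine enzyme, had the largest difference of all 34 genes. It measured 2.76, 2.63 and 3.15 in the control pools and 4.44, 3.75, 4.21 and 4.09 in the KO-labelled pools, with no overlap. The difference was 1.28 (SE 0.23, 2.42-fold; limma adjusted p = 0.00129), or 1.11 minus the shift. Cars2, the cysteine enzyme, measured 3.10, 3.05 and 3.15 in the control pools and 4.97, 4.02, 4.09 and 4.21 in the KO-labelled pools. Pool 1 stood highest, and all 4 lay above the narrow control range. The difference was 1.22 (SE 0.25, 2.33-fold; limma adjusted p = 0.00278), or 1.05 minus the shift. Both were called under every alternative tried, with adjusted p up to 0.0121 for Iars2 and 0.0169 for Cars2.

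Lars2, the leucine enzyme, measured 2.34, 2.51 and 2.27 in the control pools and 2.95, 3.72, 2.97 and 2.84 in the KO-labelled pools. Pool 2 stood well above the other 3, and the groups did not overlap. It rose by 0.75 (SE 0.24; limma adjusted p = 0.0361), or 0.58 minus the shift. The call was lost without control pool 1 (adjusted p = 0.110), 2 (adjusted p = 0.0739) or 3 (adjusted p = 0.112) and without the pool labelled Gata6 KO 2 (adjusted p = 0.0978), in a range from 0.0123 to 0.151.

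Sars2, the serine enzyme, measured 2.55, 2.51 and 2.84 in the control pools and 3.07, 3.52, 3.32 and 3.05 in the KO-labelled pools, without overlap. Its difference was 0.60 (SE 0.21; limma adjusted p = 0.0525), and without the pool labelled Gata6 KO 4 the adjusted p was 0.0391, in a range from 0.0213 to 0.236. Mars2, the methionine enzyme, measured 1.82, 1.86 and 1.63 in the control pools and 1.44, 2.95, 2.96 and 2.87 in the KO-labelled pools. Pool 1 lay below every control and the other 3 lay more than 1 unit above. The difference was 0.79 (SE 0.32; limma adjusted p = 0.0917), and 1.16 without pool 1 (adjusted p = 0.00207), in a range from 0.00207 to 0.426. Nars2, the asparagine enzyme, showed a like order, with 2.08 in pool 1 and 2.72 to 3.48 in the other 3, against 2.03 to 2.39 in the control pools. Its adjusted p was 0.147, and 0.0256 without pool 1, in a range from 0.0256 to 0.714. The second Nars2 probe set, which was not used, measured 1.62 to 1.99 in the control pools and 2.35 to 2.84 in the KO-labelled pools, with pool 1 at 2.40.

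The other 10 mitochondrial genes did not pass. Yars2 (tyrosine), Aars2 (alanine) and Fars2 (phenylalanine) differed by 0.54 (SE 0.28), 0.52 (SE 0.24) and 0.51 (SE 0.23). Without the pool labelled Gata6 KO 4, which at 1.94 lay within the control range, Yars2 had an adjusted p of 0.0393, in a range from 0.0365 to 0.639. Vars2, Tars2, Wars2, Rars2 and Hars2 differed by 0.23 to 0.44, each with overlapping groups. Ears2, which loads glutamate, and Pars2, the proline enzyme, were the only members with negative differences apart from Eprs. Ears2 differed by -0.26 (SE 0.24; limma adjusted p = 0.475) and Pars2 by -0.29 (SE 0.25; limma adjusted p = 0.427), and neither was called.

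**Figure D3:**
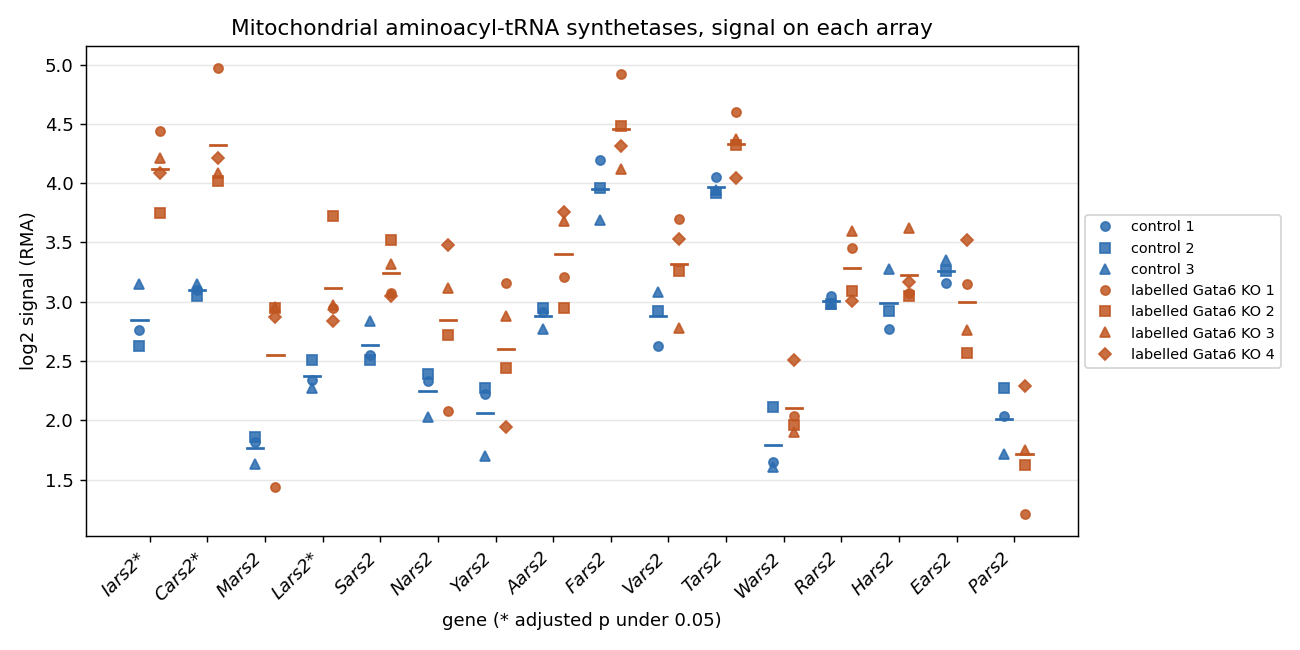
Log2 signal of the 16 mitochondrial synthetase genes on each array, ordered by their difference, with controls in blue, pools labelled Gata6 KO in orange, 1 marker shape for each replicate number and a bar at each group mean. All orange points lie above all blue points for Iars2, Cars2 and Lars2 (asterisks), and for Mars2 the orange circle of pool 1, at 1.44, lies below the blue points.

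For 15 amino acids both a cytosolic and a mitochondrial enzyme gene were measured, and for none of them were both called. The cytosolic gene alone was called for 6 (histidine, methionine, asparagine, arginine, valine and tryptophan) and the mitochondrial gene alone for 3 (cysteine, isoleucine and leucine). With 17.4% of all genes called higher, few pairs of any genes would have both called. The lack of such pairs thus does not set the compartments apart. Whether the members of a pair differed from each other was tested on the within-array log2 ratio of cytosolic over mitochondrial signal, which centring of whole arrays does not change and quantile normalization can. Over the 16 gene pairs, 0 passed the exact two-sided permutation test after Benjamini-Hochberg adjustment, and 2 had an unadjusted p under 0.05. The smallest p that 35 splits of the pools allow is 0.0286, so after adjustment a single pair cannot pass.

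The ratio of Cars to Cars2 was 1.49 ± 0.11 (SD, n = 3) in the control pools and 0.60 ± 0.11 (SD, n = 4) in the KO-labelled pools, a change of -0.89 (exact permutation p = 0.0286, adjusted p = 0.229). All 4 pools labelled Gata6 KO lay below all controls. The ratio of Rars to Rars2 was 2.38 ± 0.09 (SD, n = 3) and 3.03 ± 0.15 (SD, n = 4), a change of 0.65 the other way (exact permutation p = 0.0286, adjusted p = 0.229), again in all 4. The ratio of Hars to Hars2, which are neighbours in the RefSeq gene table, changed by 0.65 (exact permutation p = 0.0571, adjusted p = 0.305), and that of Iars to Iars2 by -0.66 (exact permutation p = 0.114, adjusted p = 0.365). Both overlapped between the groups.

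**Figure D4:**
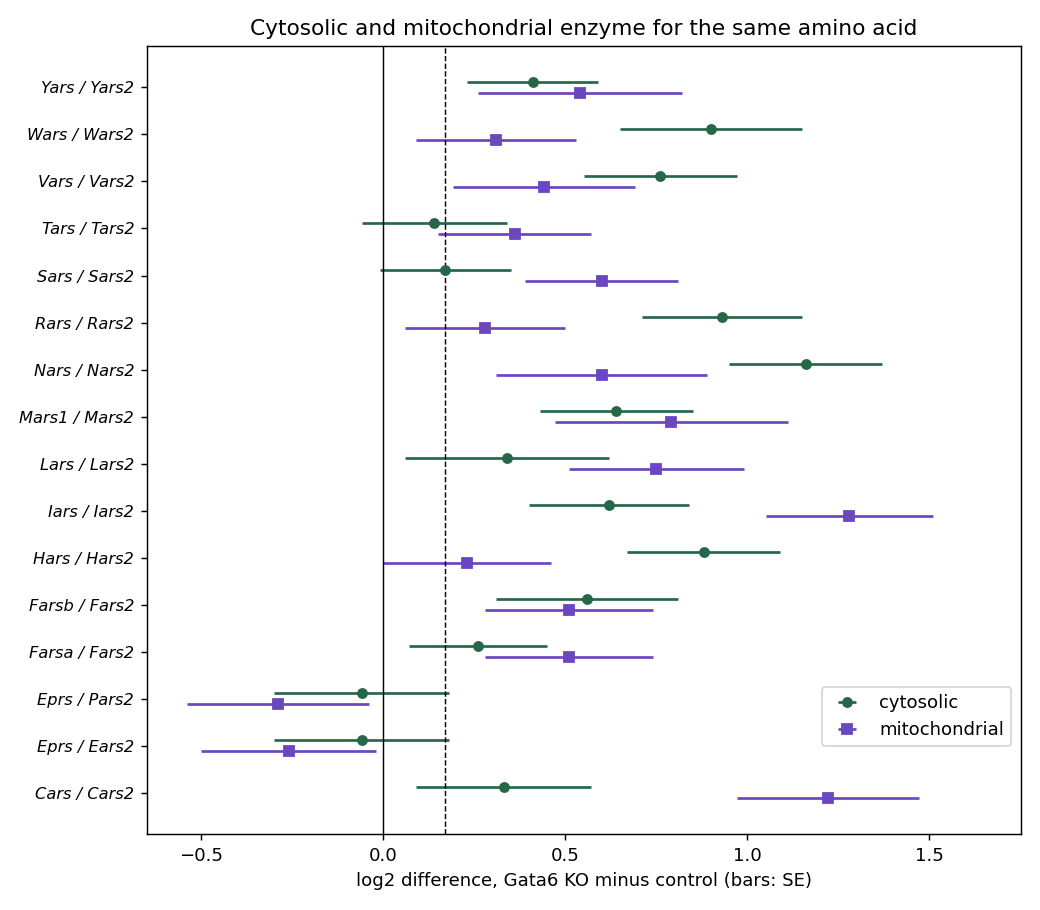
Log2 difference (pools labelled Gata6 KO minus control pools) of the cytosolic (green circles) and mitochondrial (purple squares) enzyme gene for the same amino acid, with bars of 1 SE from limma, a solid line at 0 and a dashed line at the median of all genes, 0.17. Cars2 (1.22) lies far to the right of Cars (0.33), Rars (0.93) lies to the right of Rars2 (0.28), and the Eprs, Ears2 and Pars2 points lie left of 0.

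Partners of the synthetases were read from lists of related genes. Aimp1 and Eef1e1, noncatalytic scaffold proteins of the multisynthetase complex, both rose. Aimp1 measured 3.72, 3.99 and 3.82 in the control pools and 4.97, 5.28, 4.58 and 4.78 in the KO-labelled pools, with no overlap and a difference of 1.06 (SE 0.22; limma adjusted p = 0.00312). With the mean of its probe sets in place of the highest, the difference was 0.44 and was not called (adjusted p = 0.133). Eef1e1 rose by 0.60 (SE 0.19; limma adjusted p = 0.0355), a call lost without any 1 of 5 pools. These were all 3 control pools (adjusted p = 0.102, 0.0828 and 0.109) and pools 1 and 3 labelled Gata6 KO (adjusted p = 0.0659 and 0.0595), in a range from 0.025 to 0.231.

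Of 17 measured genes that process, export, edit or modify tRNAs or charged tRNAs, 7 rose and 0 fell, against 17.4% and 7.36% of all genes. After centring 2 were higher and 2 lower, against 8.43% and 12.5% of all genes. Elac1, a nuclease that acts on tRNA ends, rose by 1.27 (SE 0.27; limma adjusted p = 0.00411). Pstk, which phosphorylates seryl-tRNA on the route to selenocysteine, rose by 0.97 (SE 0.22; limma adjusted p = 0.00607). Sepsecs, the next enzyme on that route, differed by -0.68 (SE 0.26; limma adjusted p = 0.0713), with an adjusted p of 0.0181 without control pool 3 and 0.0399 without the pool labelled Gata6 KO 4, in a range from 0.0181 to 0.277. Ssb, the La protein that binds new tRNA transcripts, rose by 0.87 (SE 0.20) and Prorsd1, a relative of proline tRNA editing domains, by 0.73 (SE 0.20). The Prorsd1 call was lost without control pool 1 (adjusted p = 0.0814) or 2 (adjusted p = 0.0701), in a range from 0.0111 to 0.0988. Xpot, the tRNA exporter, rose by 0.65 (SE 0.22; limma adjusted p = 0.0441). Xpot was not called without control pool 1 (adjusted p = 0.194) or 2 (adjusted p = 0.122) and without pools 1 (adjusted p = 0.0905), 2 (adjusted p = 0.105) and 3 (adjusted p = 0.0592) labelled Gata6 KO, in a range from 0.0173 to 0.232. Tarsl2, a further threonyl-tRNA synthetase gene outside the symbol rule, measured 3.67 to 3.89 in the control pools and 2.91 to 3.62 in the KO-labelled pools, a difference of -0.46 (SE 0.22; limma adjusted p = 0.145). After centring Tarsl2 (adjusted p = 0.0401) and Sepsecs (adjusted p = 0.026) were the genes called lower.

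Cytosolic elongation factors, which bring charged tRNAs to the ribosome, gave 4 higher and 1 lower of 9, against 17.4% and 7.36% of all genes. The counts were the same after centring, against 8.43% and 12.5% of all genes. Eef1a1, the main carrier of charged tRNA, measured 10.75, 10.76 and 10.81 in the control pools and 11.61, 11.50, 11.45 and 11.55 in the KO-labelled pools. The difference was 0.75 (SE 0.15; limma adjusted p = 0.00297), and it was not called after quantile normalization (0.23, adjusted p = 0.176) or with the mean of its probe sets (0.16, adjusted p = 0.584). Its exchange factor subunits Eef1b2, Eef1d and Eef1g rose by 1.31 (SE 0.18), 1.45 (SE 0.22) and 0.95 (SE 0.17). Eef1a2, the form known from neurons and muscle, fell by 0.93 (SE 0.28; limma adjusted p = 0.0269). Its call was lost without control pool 1 (adjusted p = 0.0603) or 3 (adjusted p = 0.129) or the pool labelled Gata6 KO 1 (adjusted p = 0.0539), in a range from 0.0087 to 0.129. Eef2, the translocation factor, differed by 0.05 (SE 0.17). Of 10 mitochondrial translation factors 2 rose, Tsfm by 0.84 (SE 0.20) and the initiation factor gene Mtif2 by 0.69 (SE 0.22), a share near the 17.4% of all genes, and after centring 1 was called. Mtif2 was not called without control pool 1 (adjusted p = 0.104) or 3 (adjusted p = 0.161) or without pools 2 (adjusted p = 0.0583), 3 (adjusted p = 0.0521) or 4 (adjusted p = 0.0581) labelled Gata6 KO, in a range from 0.023 to 0.191. Mtrf1l, a release factor, differed by 0.59 (SE 0.21; limma adjusted p = 0.0524, and 0.0268 without pool 4, in a range from 0.026 to 0.261), and Gfm1, an elongation factor, by 0.51 (SE 0.21; limma adjusted p = 0.0978).

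The amino acid response moved in both directions. Of 38 measured genes 10 rose and 5 fell, against 17.4% and 7.36% of all genes. After centring 9 were higher and 8 lower, against 8.43% and 12.5% of all genes. Atf4 itself measured 6.26, 6.21 and 6.0 in the control pools and 5.39, 5.17, 5.50 and 5.07 in the KO-labelled pools. All 4 lay below the controls, and it fell by 0.87 (SE 0.20; limma adjusted p = 0.00575). The related factor Atf5 fell by 1.28 (SE 0.23; limma adjusted p = 0.00132). Sesn2, an inhibitor of mTORC1 signalling, fell by 1.00 (SE 0.24), a call lost without control pool 1 (adjusted p = 0.0576, in a range from 0.00384 to 0.0576). Atf3 and Ppp1r15a, which recruits a phosphatase to eIF2, also fell. The Atf3 call was lost without control pool 1 (adjusted p = 0.123), on which it measured 6.0 against 3.79 and 3.58 on the other controls, and without pools 1 (adjusted p = 0.0609) and 3 (adjusted p = 0.0750) labelled Gata6 KO. Its range over alternatives was 0.0153 to 0.123. The Ppp1r15a call was lost without each control pool in turn (adjusted p = 0.0709, 0.0583 and 0.0599), in a range from 0.00485 to 0.0709.

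Eif2ak3, the eIF2 kinase PERK, which acts upstream of Atf4, rose by 1.16 (SE 0.23; limma adjusted p = 0.0022). The genes of this list that rose also include the serine synthesis enzymes Phgdh, Psat1 and Psph. Phgdh measured 4.46, 4.30 and 4.31 in the control pools and 5.58, 5.64, 5.23 and 5.74 in the KO-labelled pools, a difference of 1.19 (SE 0.20; limma adjusted p = 8.30e-04). Psat1 rose by 1.09 (SE 0.20) and Psph by 0.90 (SE 0.21), both called without each pool in turn. Cth, an enzyme of cysteine synthesis, rose by 1.42 (SE 0.24), Slc7a11, the cystine transporter, by 1.10 (SE 0.23), and Eif4ebp1, an inhibitor of cap-dependent translation, by 1.25 (SE 0.20). Asns, the asparagine synthetase, differed by 0.56 (SE 0.22; limma adjusted p = 0.0803). The stress response genes Ddit3, Trib3 and Chac1 were not called, with differences of 0.25, 0.06 and -0.49. Chac1 lay below every control in all KO-labelled pools (limma adjusted p = 0.0743). It was called lower after centring (adjusted p = 0.0225) and after quantile normalization (adjusted p = 0.0435), in a range from 0.0225 to 0.213.

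**Figure D5:**
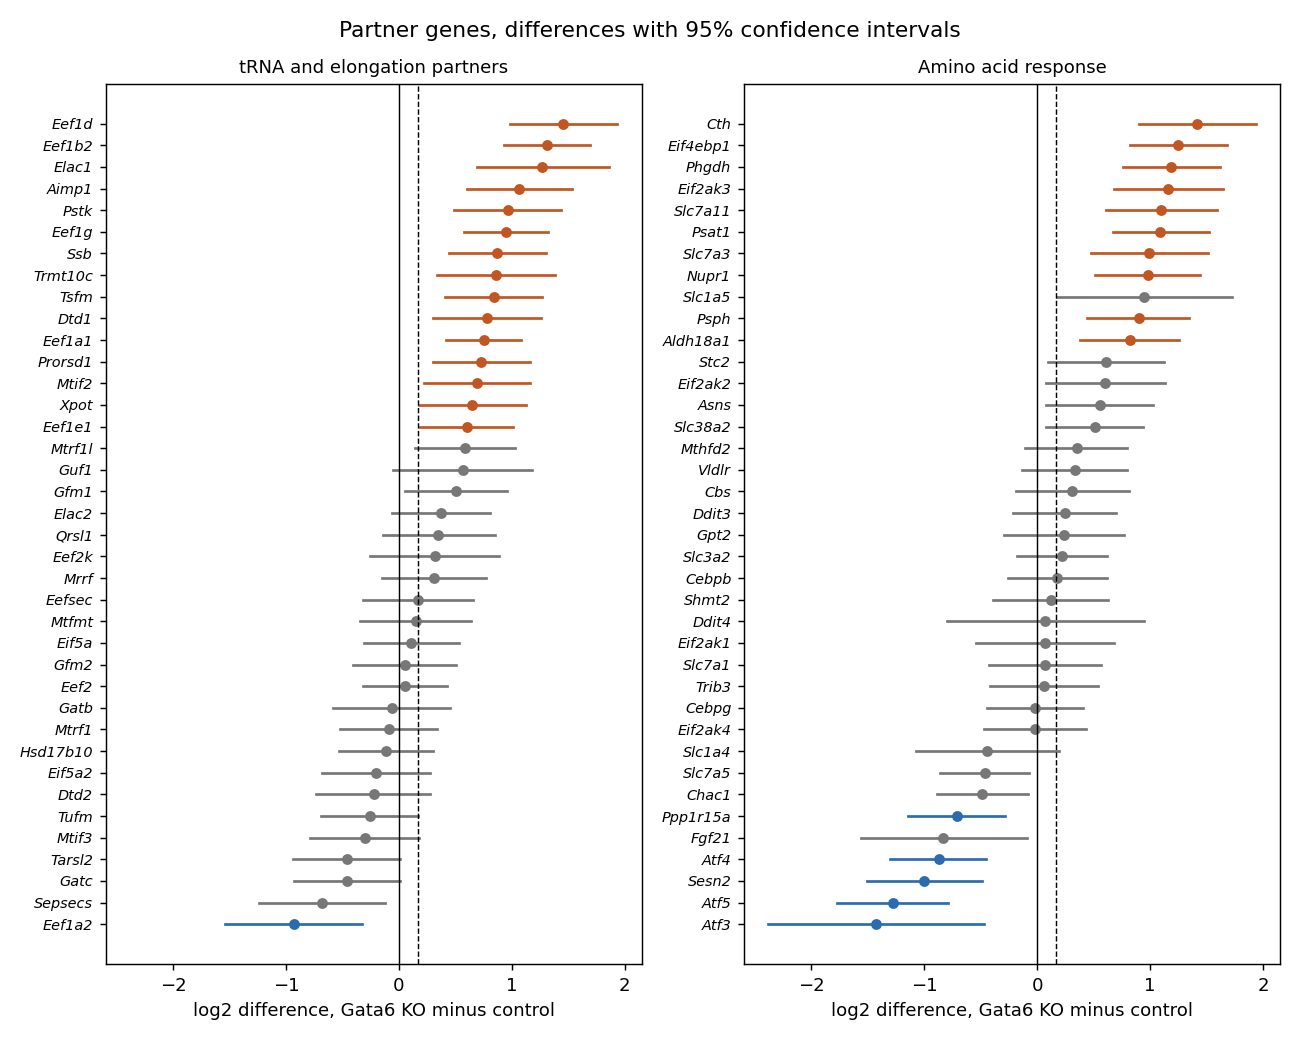
Log2 difference (pools labelled Gata6 KO minus control pools) with 95% confidence intervals from limma for tRNA, elongation and scaffold genes (left) and amino acid response genes (right). Orange marks genes called higher, blue genes called lower and grey genes not called, with lines at 0 and at the median of all genes, 0.17. Eef1d (1.45) and Cth (1.42) lead the 2 panels, while Atf3, Atf5, Sesn2, Atf4 and Ppp1r15a lie left of 0 at the bottom right.

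Markers of other cell types differed between the same pools. Their counts stand against 17.4% of all genes called higher and 7.36% called lower. Of 15 measured acinar markers 9 rose and 0 fell, and the lowest of them averaged 5.57. Their mean was 10.19 to 10.28 in the control pools and 11.05 to 11.17 in the KO-labelled pools, with 98.9% of its variance lying between the groups, so the acinar signal and the group cannot be told apart. The 2 most abundant, Ctrb1 and Cela1, lay above 13 in every pool and differed by 0.05 and 0.02. The highest value in the data was 13.545, and whether the top of the scale limits such differences was not tested. Cpa1, with a control mean of 13.00, differed by 0.31 (SE 0.14) without overlap and was not called. Lower on the scale, Amy2b rose by 2.82 (SE 0.24), Spink1 by 1.90 (SE 0.18) and Prss2 by 1.74 (SE 0.18), genes chosen after their values were seen. Bhlha15, also lower on the scale, differed by 0.27 (SE 0.23) with overlapping groups and was not called. All 8 beta-cell markers fell, with a list mean of 8.16 to 8.76 in the control pools and 5.29 to 6.78 in the KO-labelled pools. The 2 most abundant of them, Iapp and G6pc2, fell by 1.56 (SE 0.33) and 2.96 (SE 0.41). The 3 measured alpha-cell markers fell as well, with differences of -2.42 (SE 0.66) for Gcg and -2.18 (SE 0.23) for Ttr, and so did 4 of 5 delta and PP cell markers, led in level by Sst and Ppy. The Gcg call was lost without control pool 1 (adjusted p = 0.0615) or 2 (adjusted p = 0.0538). In whole islets fewer cells of a type and less RNA per cell cannot be told apart. Their part in the synthetase differences was not tested.

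Of 8 mesenchymal markers 6 rose and 0 fell, with list means of 2.89 to 3.74 in the control pools and 5.60, 4.66, 4.71 and 3.59 in pools 1 to 4 labelled Gata6 KO, so that pool 1 was again the highest. The 2 most abundant of these, Dcn and Acta2, differed by 2.04 (SE 0.70) and 0.19 (SE 0.36), and the Dcn call was lost without control pool 1 (adjusted p = 0.219) or 2 (adjusted p = 0.142) and without pools 1 (adjusted p = 0.122), 2 (adjusted p = 0.0859) or 3 (adjusted p = 0.123) labelled Gata6 KO. Of 7 lymphoid markers 4 rose, with a list mean of 1.78 to 1.93 in the control pools and 3.53, 2.74, 2.65 and 2.89 in the KO-labelled pools. Of 8 macrophage markers 2 rose, a share of 25.0%, against 17.4% of all genes. The 2 genes of each list with the highest mean over all 7 pools, a rank that a rise itself lifts, were Cd79a and Ltb, and C1qb and Lyz2. Control means were 2.26 for Ltb and 2.35 for Lyz2, below those of Cd79a (2.71) and C1qb (4.16). Ltb rose by 1.64 (SE 0.24) and Lyz2 by 2.57 (SE 0.63), while Cd79a and C1qb were not called, at 1.06 (SE 0.44) and -0.24 (SE 0.47). Lyz2 was not called without control pool 3 (adjusted p = 0.0516), and Cd79a was called without the pool labelled Gata6 KO 4 (adjusted p = 0.0228). Of 8 endothelial markers 4 fell, among them Plvap and Kdr by 1.41 (SE 0.33) and 1.30 (SE 0.23), and 1 rose. Of 5 ductal markers 1 rose and 1 fell, and the most abundant, Muc1 and Sox9, differed by 1.23 (SE 0.27) and 0.48 (SE 0.31), with an adjusted p of 0.0184 for Sox9 without control pool 3. No red blood cell marker had a probe set named for it alone. The part of these lists in the synthetase differences was not tested.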

How the data were processed

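The deposited log2 values were made by the authors with RMA, per the submitters' processing notes, which also name Transcriptome Analysis Console. Versions, genome build and any later step are not given in the sources used here. Array medians over all probe sets still differed, from 1.72 to 1.78 on control arrays and from 1.89 to 2.11 on the others. Base 2 is taken from RMA. By the platform's gene annotation 23521 of 41345 probe sets had 1 symbol, 1814 several, and 16010 were unnamed here. Each gene was represented by its probe set with the highest mean, which gave 22180 genes.

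Each gene was fitted by limma 3.58.1 under R 4.3.3 (lmFit, then eBayes with a trend, two-sided, no covariate), with Benjamini-Hochberg adjustment over all genes and a threshold of 0.05. SEs are moderated. Data were simulated for this comparison with 22180 genes, of which far fewer were changed than were called in the measured data. There 49% of genes with a log2 change of 1 and 91% with a change of 2 were recovered. The share recovered in the measured data, where 24.7% of genes were called in either direction, was not tested. Every member is named. Partner genes named include at least the up to 4 of smallest p in each list, and for other cell types the 2 genes of each list with the highest mean over all arrays. The members, lists and motifs were chosen with earlier results of these data known. Replicates are separate pools of animals. Same-numbered arrays were compared by their deviations from group means. Alternatives covered scaling, filtering, probe set choice, variance model, array weights, the threshold, replicate number and Xist class (an indicator of sex in the pools) as blocks, and arrays left out. The 5 arrays with high Xist alone were added after seeing the data. Figures were drawn with matplotlib 3.10.9.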

Additional observations from a re-analysis of the deposited data

Results flagged for a closer look

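Of 110 synthetase and partner genes, 6 had 1 array labelled Gata6 KO that stood apart from the other 3, and chance alone marks about 1 in 20 such groups. Gars measured 8.15 on array 1 against 7.53 to 7.57 on the others. Mars2 measured 1.44 on array 1 against 2.87 to 2.96, and Lars2 measured 3.72 on array 2 against 2.84 to 2.97. Among the partners, Mtif2 measured 3.03 on array 4 against 2.75 to 2.77, Psat1 measured 5.26 on array 4 against 5.31 on the other 3, and Slc7a5, an amino acid transporter, measured 7.48 on array 2 against 7.88 to 7.93.

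A probe set shared by Ptges3l and Aarsd1, which no comparison used, was higher on every array labelled Gata6 KO than on any control array. It measured 3.74 ± 0.17 (SD, n = 4) against 3.11 ± 0.12 (SD, n = 3). Which of these genes it reports cannot be told from the array.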

How the results depend on the processing

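None of the 34 synthetase genes was called lower under any alternative tried. Cytosolic genes called higher numbered 2 after centring, 4 on the 5 arrays with high Xist and 4 at a threshold of 0.01, and from 4 to 8 without 1 array. Mitochondrial genes called higher numbered 5 with array weights and from 2 to 5 without 1 array. With the replicate number as a block they numbered 5, the cytosolic genes 8, and all genes 3975 higher and 1946 lower. Lars was called with this block (0.60, adjusted p = 0.0429). No control array is numbered 4, so with this block array 4 labelled Gata6 KO adds nothing to the differences. Same-numbered arrays correlated at 0.098, 0.004 and 0.115 in their deviations from the group means, and differently numbered arrays at -0.141 to 0.073. The labels name no shared batch, and the numbers were not taken as pairs. Over all genes, 1870, 2440, 2231 and 1855 were higher after centring, after quantile normalization, on arrays with high Xist and at a threshold of 0.01, and from 2246 to 3812 without 1 array. Lower genes numbered 2769 after centring, 2477 after quantile normalization and 942 at 0.01, and from 1019 to 1801 without 1 array. The share of called genes that were higher was 70.2%, against 40.3% after centring and 49.6% after quantile normalization. The cytosolic median was 0.29 and 0.31 under these scalings, and from 0.42 to 0.62 without 1 array. The mitochondrial median was 0.28 and 0.35, 0.39 on arrays with high Xist, and from 0.35 to 0.55 without 1 array. Sars and Tars turned to -0.06 and -0.08 after centring and to -0.15 and -0.05 after quantile normalization. Eprs turned to 0.11 with the replicate block, to 0.22 without arrays 3 and 4 labelled Gata6 KO, and ran from -0.22 to 0.11 without 1 array (0.08 without control array 1). The causes were not tested. Of 644 comparisons of a member under an alternative 583 kept direction and side of the threshold. Of the others, 33 lost a call, 20 gained a call and 8 turned direction. Only the 10 members called in the main fit could lose a call, and the 24 not called make up most of the 644 comparisons.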

Other observations

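The probe set shared by Aars, the cytosolic alanine enzyme, and Exosc6, an RNA exosome subunit, measured 5.20, 5.11 and 5.19 in the control pools and 5.33, 5.26, 4.85 and 5.11 in the pools labelled Gata6 KO. The groups overlapped, and it was not tested because it names no single gene. The 2 other probe sets shared by Ptges3l and Aarsd1 gave control means of 1.26 ± 0.29 and 0.98 ± 0.03 (SD, n = 3), and 1.74 ± 0.50 and 1.47 ± 0.54 (SD, n = 4) in the other group, with overlap.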
